A study of Homo sapiens with 6 samples.

Results

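The urea cycle genes of Huh7 cells, a human hepatoma line, were followed across 2 siRNA groups: ARG1 and ARG2, which encode the arginases, the cycle enzymes CPS1, OTC, ASS1 and ASL, the cofactor synthase NAGS, the mitochondrial carriers SLC25A13 and SLC25A15, and glutamate dehydrogenase, GLUD1. These 10 genes were chosen by name, and all 10 were found among the 57905 Ensembl gene IDs of the table. The siControl group (3 libraries) received a scrambled siRNA and the siASGR1 group (3 libraries) an siRNA against ASGR1, a subunit of the asialoglycoprotein receptor, and both were harvested 72 h after transfection. Per the labels, all cells were grown in DMEM with serum, the line is the same in both groups, and only 1 siRNA label against ASGR1 was used. The replicate numbers do not say whether libraries came from separate cultures, so the spread behind each p-value may be technical.

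The urea cycle turns ammonia, which is toxic, into urea, chiefly in the periportal hepatocytes of the liver. It starts in mitochondria, where N-acetylglutamate made by NAGS switches on CPS1, which fixes ammonia as carbamoyl phosphate, and OTC joins this to ornithine as citrulline. In the cytosol ASS1 and ASL turn citrulline and aspartate into arginine and fumarate, and ARG1 splits arginine into urea and ornithine. ARG2 catalyses the same reaction in mitochondria and is best known from tissues outside the liver. GLUD1 releases ammonia from glutamate, SLC25A13 (citrin) exports aspartate from mitochondria and SLC25A15 exchanges ornithine for citrulline. Arginine and ornithine also feed the synthesis of polyamines, creatine, proline and nitric oxide.

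The arginase genes moved in opposite directions: ARG1 mRNA was 7.41-fold higher and ARG2 mRNA 2.90-fold lower in siASGR1 in mean FPKM (fragment counts divided by exon length and by library depth, as the authors deposited them). The later cytosolic enzyme gene ASL and the aspartate carrier gene SLC25A13 rose 2.30-fold and 2.53-fold, while ASS1 fell 1.62-fold. SLC25A15 and GLUD1 rose by less than 1.4-fold, NAGS did not pass the test, and the genes of the first enzymes, CPS1 and OTC, were close to 0 in both groups. Of the 8 members that could be tested, 5 rose and 2 fell (limma on log2(FPKM + 1), called at an adjusted p under 0.05). Changes were common in these libraries: 61.3% of the 13568 genes tested were called, 20.9% as higher and 40.4% as lower, so the share of members called is to be read against that background.

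The promoters of the arginase genes were picked for printing after their opposite changes were seen. Any link between the letters found and the direction of change was not tested. All 10 members had at least 1 start site in the RefSeq promoter table (GRCh38.p14; 250 bases before to 50 after each start, 13 windows in all). Each window was searched on both strands for 5 motifs. Distances are from these RefSeq starts, which for ARG1 and ARG2 lie downstream of the GENCODE v29 gene starts given below. By the GENCODE spans, the printed ARG1 stretch and the proximal ARG2 stretch lie inside the gene, and the distal ARG2 stretch lies before it. The letters TATAAA, the core promoter element bound by TBP, were found in ARG1 29 bases before its start and in OTC 192 bases before its start, and in 11.5% of all 35116 promoter windows. The letters TGACGTCA (the palindromic CREB element) were found in ARG2 only among the members, at 172 and 64 bases before its start, and in 1.85% of all windows. Each line gives 30 bases, 5′ to 3′ on the gene's strand, with the motif in capitals.
ARG1 (chr6:131573185-131573214, plus strand): attcaacccaagTATAAAtggaaaaaaaag
ARG2, distal match (chr14:67619737-67619766, plus strand): ccagagtggggTGACGTCAtcgaaggcacg
ARG2, proximal match (chr14:67619845-67619874, plus strand): caatgtggcggTGACGTCAcggggcgggcg
The letters CCAAT (NF-Y) were in windows of 4 members, ARG2, ASL, CPS1 and SLC25A13, and in 34.6% of all windows. The letters TTNNGCAA (C/EBP) and CAAAGTCCA (HNF4) were in none of the 13 windows, against 10.5% and 0.384% of all windows. These are matches of letters in short windows and were not tested for any binding. No motif in this search overlapped another at the positions printed. The proximal ARG2 stretch opens inside a CCAAT match that begins 76 bases before the start and is left in lower case.

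The values rested on 16326000 to 19332000 fragments per library, estimated from the steps between low FPKM values. The siRNA target, ASGR1, was 16.90 to 17.56 FPKM in siControl. In siASGR1 it was at most 4.82 in the table of the whole series but 14.04 to 15.81 in the single library files, and it was the only ID whose values differed between the sources. The extent of the knockdown therefore depends on the source, whereas each member's values were identical in both. All 10 hepatocyte markers examined, albumin among them, were called higher, beside 20.9% of all tested genes. Their summed level was 3991 to 4104 FPKM in siControl and 7631 to 7929 in siASGR1. The 8 fibroblast or stellate markers summed to 6.12 to 7.44 FPKM in siControl and 0.68 to 0.95 in siASGR1, with 5 of the 8 under 1 FPKM in every library and COL1A1 and COL1A2 called lower. Of the leukocyte markers, PTPRC, CD3E and CD68 were at most 0.21 FPKM, and LYZ was 67.57 to 117.6 and called higher. The 4 endothelial markers found, of 5 listed, summed to at most 0.21 FPKM, with KDR and TEK at 0. The 4 cholangiocyte markers summed to 44.13 to 45.52 FPKM in siControl and 41.29 to 42.85 in siASGR1, with KRT7 at 0. Within that sum KRT19 was called lower (12.40 to 15.79 FPKM in siControl, 7.73 to 8.11 in siASGR1), SOX9 was called higher (25.92 to 28.11 and 29.83 to 32.28) and EPCAM was not called.

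**Figure D1:**
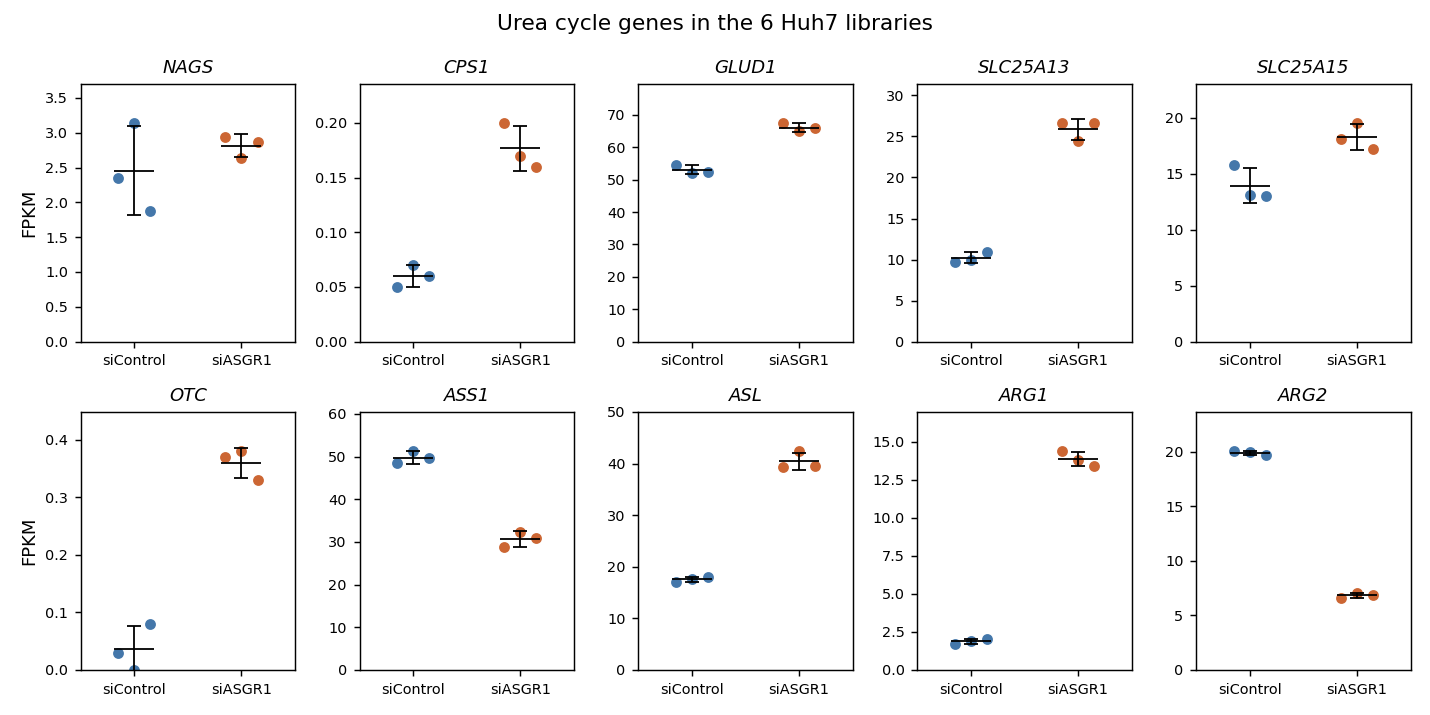
FPKM of each of the 10 members (vertical axes from 0, a different range for each gene) in the 3 siControl libraries (blue) and the 3 siASGR1 libraries (orange). Bars are means ± SD (n = 3); the groups overlapped for NAGS only, and CPS1 and OTC stayed under 0.4 FPKM everywhere.

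ARG1 (ENSG00000118520; GRCh38 chromosome 6, 131573144 to 131584332, plus strand) encodes the cytosolic arginase of hepatocytes. It was 1.68, 1.91 and 2.03 FPKM in siControl and 14.39, 13.80 and 13.45 FPKM in siASGR1. Every siASGR1 library was thus far above every siControl library, and the spread within each group was small. The means were 1.87 ± 0.18 and 13.9 ± 0.48 FPKM (SD, n = 3), with a log2 fold change of 2.37 on the log2(FPKM + 1) scale (SE 0.06, limma adjusted p = 1.75e-06). About 63 to 65 fragments lay behind each siControl value and 501 to 529 behind each siASGR1 value. The added 1 understates the change of a gene this low, and limma-voom on rebuilt reads gave a log2 fold change of 2.89. With the 13568 tested genes ordered from the largest rise to the largest fall in log2 fold change, ARG1 ranked 7.

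The MED23 gene lies on the opposite strand and overlaps the ARG1 gene, although the exons of the 2 genes share 0 bases in GENCODE v29. MED23, a Mediator subunit gene, moved the other way, from 10.4 ± 0.52 to 7.09 ± 0.29 FPKM. The strand setting of the counting is not given in the sources used here.

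ARG2 (ENSG00000081181; chromosome 14, 67619798 to 67651720, plus strand), the mitochondrial arginase gene, was 20.04, 19.93 and 19.66 FPKM in siControl. In siASGR1 it was 6.63, 7.09 and 6.83 FPKM, so all 3 libraries were below all siControl libraries. The means were 19.9 ± 0.196 and 6.85 ± 0.23 FPKM, with a log2 fold change of -1.41 (SE 0.04, limma adjusted p = 2.03e-06). Of the 2418 exon bases of ARG2, 904 are shared with exons of VTI1B, a vesicle fusion gene on the opposite strand. VTI1B fell from 10.3 ± 0.47 to 7.68 ± 0.51 FPKM, a smaller change than that of ARG2. Without strand, reads from the shared bases cannot be told apart, so the value of ARG2 is uncertain to that extent. The fibroblast marker level given above fell along with ARG2 and the hepatocyte markers rose along with ARG1, and the part of either in these results was not tested. The labels name only Huh7 cells in both groups. The fibroblast or stellate markers did not all move alike. COL1A1 was 2.05 to 2.77 FPKM in siControl and 0.02 to 0.03 in siASGR1. PDGFRB was 0.12 to 0.22 FPKM in siControl and 0.13 to 0.22 in siASGR1. Whether the cells present changed was not tested. Bulk libraries cannot tell a change in the cells present from a change in RNA per cell.

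Within libraries the arginases changed places. The log2 ratio of ARG1 to ARG2, after adding 1 to each, was -2.97, -2.85 and -2.77 in siControl and 1.01, 0.87 and 0.88 in siASGR1. The difference of the group means was 3.79 (two-sided exact permutation p = 0.1, n = 3 per group, the smallest p that 3 against 3 libraries can give). Of the summed arginase FPKM, ARG1 supplied 7.73%, 8.75% and 9.36% in siControl and 68.5%, 66.1% and 66.3% in siASGR1. This share does not depend on how libraries are scaled. It does depend on the exon lengths used for FPKM and on the bases that ARG2 shares with VTI1B. The sum itself, looked at after the values were seen, moved little: it was 21.72, 21.84 and 21.69 FPKM in siControl and 21.02, 20.89 and 20.28 FPKM in siASGR1. The sum was thus 1.02 lower with FPKM as deposited, but 1.98 higher with median-of-ratios scaling (20.1 ± 0.21 and 22.1 ± 0.59), so its direction is set by the scaling.

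**Figure D2:**
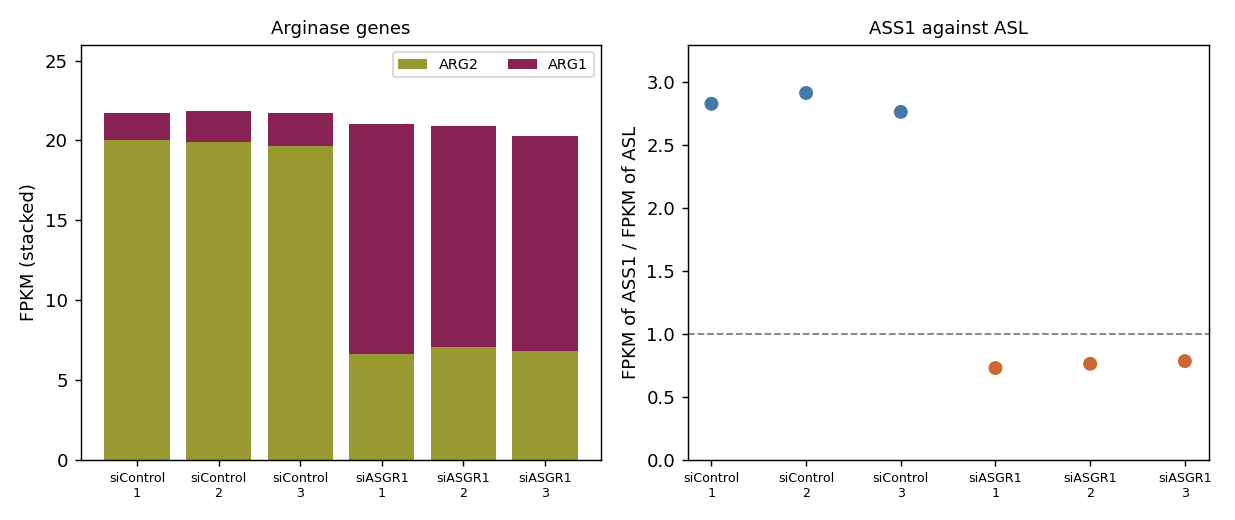
Left, FPKM of ARG2 and ARG1 stacked in each of the 6 libraries: ARG1 supplied under 10% of the sum in siControl and over 66% in siASGR1. Right, FPKM of ASS1 divided by FPKM of ASL in each library, with the dashed line at 1: the siControl points lie between 2.77 and 2.92 and the siASGR1 points between 0.73 and 0.78.

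The cytosolic enzymes upstream of arginase also diverged. ASL (ENSG00000126522; chromosome 7, 66075798 to 66093558, plus strand), which encodes argininosuccinate lyase, was 17.10, 17.58 and 17.98 FPKM in siControl and 39.38, 42.39 and 39.51 FPKM in siASGR1. The groups were well apart, and the log2 fold change was 1.16 (SE 0.04, limma adjusted p = 3.60e-06). ASS1 (ENSG00000130707; chromosome 9, 130444929 to 130501274, plus strand), which encodes argininosuccinate synthase, the enzyme one step earlier, was 48.39, 51.26 and 49.72 FPKM in siControl. It was 28.71, 32.34 and 30.99 FPKM in siASGR1, below every siControl library, with a log2 fold change of -0.68 (SE 0.05, limma adjusted p = 4.19e-05). The FPKM of ASS1 divided by that of ASL, a quantity chosen after the values were seen, went from 2.84 ± 0.076 to 0.76 ± 0.028. ASS1 thus stood above ASL in all siControl libraries and below it in all siASGR1 libraries. This order does not depend on a scaling factor common to the library, but it does depend on the exon lengths used for FPKM.

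ASS1 has many near-identical pseudogenes that can take or lend reads. Of 14 that carry its name in the table, 13 were under 1 FPKM and 6 at 0 in every library. The exception, ASS1P12, was 2.08 ± 0.41 FPKM in siControl and 0.91 ± 0.17 in siASGR1, in the same direction as ASS1 and at a small part of its level. ASLP1 did not exceed 1.22 FPKM. A readthrough gene of the ASL locus, AC068533.4, shares 563 exon bases with ASL, and it was 0.95 ± 0.19 and 0.33 ± 0.13 FPKM, higher in siControl and thus opposite to ASL; it was not tested.

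SLC25A13 (ENSG00000004864; chromosome 7, 96120220 to 96322147, minus strand) supplies the cytosolic aspartate that ASS1 uses. It was 9.75, 9.96 and 10.96 FPKM in siControl and 26.64, 24.41 and 26.58 FPKM in siASGR1. No library of one group came near the other, and the log2 fold change was 1.26 (SE 0.06, limma adjusted p = 6.60e-06). Its paralog SLC25A12 (aralar), the aspartate carrier best known from brain and muscle, was at most 0.22 FPKM in any library, so citrin was the more abundant of these carriers in every library. SLC25A15 (ENSG00000102743; chromosome 13, 40789412 to 40810111, plus strand), the ornithine carrier gene, was 15.77, 13.06 and 13.00 FPKM in siControl and 18.13, 19.53 and 17.24 FPKM in siASGR1. The groups did not overlap, but siControl replicate 1 came close to the lowest siASGR1 library. Its log2 fold change was 0.37 (SE 0.08, limma adjusted p = 0.00616), and its 4 pseudogenes by name were at 0 in every library.

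GLUD1 (ENSG00000148672; chromosome 10, 87050486 to 87094866, minus strand) was the most abundant member in both groups. It was 54.66, 52.18 and 52.29 FPKM in siControl and 67.50, 64.97 and 65.83 FPKM in siASGR1, a small but separate rise with a log2 fold change of 0.31 (SE 0.04, limma adjusted p = 0.000318). GLUD2, an intronless copy of GLUD1 whose reads are hard to tell from it, rose from 5.52 ± 0.58 to 9.27 ± 0.81 FPKM, while the pseudogene GLUD1P3 fell from 1.88 ± 0.33 to 0.76 ± 0.13 FPKM. SHLD2, a DNA repair gene on the opposite strand, shares 464 of the 3519 exon bases of GLUD1 and rose from 4.91 ± 0.083 to 8.19 ± 0.71 FPKM. The single values of GLUD1 and GLUD2 are therefore uncertain.

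The entry of the cycle was scarcely expressed. CPS1 (ENSG00000021826; chromosome 2, 210477682 to 210679107, plus strand), the most abundant mitochondrial enzyme of normal hepatocytes, was 0.05, 0.07 and 0.06 FPKM in siControl and 0.20, 0.17 and 0.16 FPKM in siASGR1. The groups did not overlap, with 34 fragments in all behind the siControl values and 107 behind those of siASGR1. OTC (ENSG00000036473; chromosome X, 38352545 to 38421450, plus strand) was 0.03, 0 and 0.08 FPKM in siControl and 0.37, 0.38 and 0.33 FPKM in siASGR1. That is 3 fragments against 35 over the groups, and a limit of 3 fragments in 1 library corresponds to 0.090 to 0.106 FPKM for this gene. Per unit of depth the ratio of siASGR1 to siControl fragments was 10.8 for OTC (exact 95% interval 3.42 to 55.1) and 2.92 for CPS1 (1.97 to 4.44). Both intervals cover counting error only.

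Neither CPS1 nor OTC reached 1 FPKM in any library, so they were not among the genes tested. With no filter on low values both were called higher, CPS1 with a log2 fold change of 0.15 (limma adjusted p = 0.0262) and OTC with 0.39 (limma adjusted p = 0.00297). limma-voom on rebuilt reads without the filter, added after the data were seen, gave 1.52 (adjusted p = 0.00199) and 3.19 (adjusted p = 0.00045). Both levels stayed far under those of the cytosolic enzymes in either group.

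NAGS (ENSG00000161653; chromosome 17, 44004546 to 44009063, plus strand), whose product makes the activator of CPS1, was 2.35, 3.14 and 1.87 FPKM in siControl and 2.94, 2.63 and 2.87 FPKM in siASGR1. The siControl libraries spread across the whole range of the siASGR1 libraries. Its log2 fold change of 0.16 (95% interval -0.15 to 0.47) did not pass the test (limma adjusted p = 0.329). Without siControl replicate 2, the highest library, it was 0.30 and passed (limma adjusted p = 0.0419). Without siControl replicate 3, the lowest, it was 0.033 (limma adjusted p = 0.809), so the value of NAGS depends on either of these libraries.

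**Figure D3:**
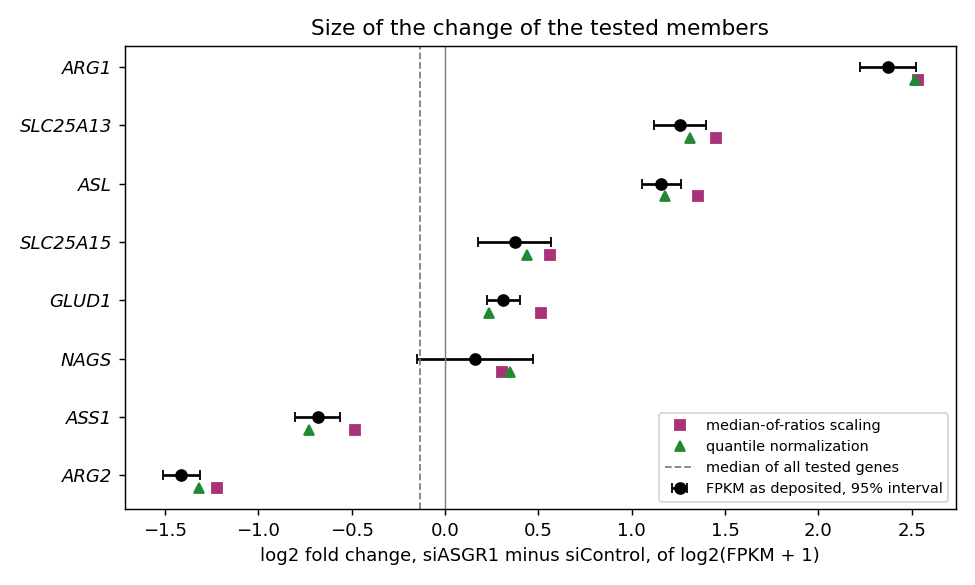
Log2 fold change (siASGR1 minus siControl, log2(FPKM + 1)) of the 8 tested members with 95% intervals from limma (black), and the same under median-of-ratios scaling (squares) and quantile normalization (triangles); the dashed line is the median of all tested genes. ARG1 lies highest at 2.37 and ARG2 lowest at -1.41, and no member changes side with either scaling.

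The order of the members by level in FPKM changed between the groups. This order depends on the exon lengths by which FPKM is divided. The place of ARG2 also carries the uncertainty from the bases shared with VTI1B. In siASGR1 VTI1B was 7.68 FPKM and ARG2 6.85. In siControl it ran from GLUD1 (53.0 ± 1.40 FPKM) and ASS1 (49.8 ± 1.44) to ARG2, ASL (17.6 ± 0.44), SLC25A15 (13.9 ± 1.58) and SLC25A13 (10.2 ± 0.65), then NAGS (2.45 ± 0.64), ARG1, CPS1 and OTC. NAGS and ARG1 overlapped in these libraries, as did CPS1 and OTC. In siASGR1 the order was GLUD1 (66.1 ± 1.29), ASL (40.4 ± 1.70), ASS1 (30.7 ± 1.83), SLC25A13 (25.9 ± 1.27), SLC25A15 (18.3 ± 1.15), ARG1, ARG2, NAGS (2.81 ± 0.16), OTC (0.36 ± 0.026) and CPS1 (0.18 ± 0.021), with no overlap between neighbours. ARG1 moved from rank 8 to rank 6 and ARG2 from rank 3 to rank 7.

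The groups did not overlap for 7 of the 8 tested members, against 67.3% of all tested genes. Over all genes tested the log2 fold change had a median of -0.13 with FPKM as deposited, and median-of-ratios scaling moved it to 0.04. Each called member kept its direction and its call with that scaling, with upper-quartile scaling and with quantile normalization. ASS1, a lower member, moved from -0.68 to -0.48 and GLUD1 from 0.31 to 0.51 with median-of-ratios scaling. With that scaling the split of all tested genes was 4548 higher and 3439 lower, in place of 2839 and 5480.

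Genes that use arginine and ornithine outside the cycle were examined as a list of 26, of which 20 were tested. Of these 10 rose and 4 fell (70.0% called, median log2 fold change 0.18), a split that became 14 and 2 with median-of-ratios scaling. Over all tested genes 61.3% were called, with a median of -0.13, and the counts of this and the next 3 lists stand against that background. ODC1, which encodes ornithine decarboxylase, the first enzyme of polyamine synthesis, rose from 23.95, 26.55 and 24.79 FPKM to 80.47, 82.97 and 79.45 FPKM, a 3.23-fold change in the means (log2 fold change 1.65, limma adjusted p = 2.03e-06). AGMAT, which encodes a mitochondrial enzyme of the arginase family annotated as agmatinase, rose from 3.97 ± 0.295 to 20.9 ± 1.30 FPKM, 5.27-fold. GAMT, which encodes the methyltransferase that completes creatine synthesis, rose 2.44-fold, from 43.2 ± 4.58 to 105.5 ± 6.31 FPKM. GATM, the gene of the arginine-using step before it, was at most 0.14 FPKM in any library and was not tested. DDAH2, of the family that breaks down methylarginines, rose from 25.0 ± 1.01 to 40.1 ± 2.06 FPKM.

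Polyamine and proline genes further down this list were named after their values were seen. The spermidine and spermine synthase genes SRM and SMS rose with log2 fold changes of 0.45 and 0.34. The proline genes split: PYCR1 and PRODH fell (log2 fold changes -0.59 and -0.67), while PYCR3 rose (0.64). OAT, which encodes ornithine aminotransferase, was 17.4 ± 0.42 and 15.9 ± 0.63 FPKM, called lower by limma at an adjusted p = 0.0443, but its log2 fold change turned from -0.13 to 0.068 with median-of-ratios scaling and it lost its call in 15 of 19 alternatives. Of the nitric oxide synthases NOS1 was at 0, NOS2 at most 0.12 and NOS3 at most 1.10 FPKM.

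Genes that supply nitrogen to the cycle rose in 7 and fell in 5 of 15 tested members of a list of 19 (80.0% called, median log2 fold change 0.24). GLUL, glutamine synthetase, which traps ammonia in glutamine and in liver marks perivenous hepatocytes, was 28.95, 29.01 and 29.03 FPKM in siControl and 47.84, 47.70 and 47.73 FPKM in siASGR1. Every siASGR1 library was above every siControl library. ASNS, asparagine synthetase, fell 2.16-fold (38.9 ± 0.75 to 18.1 ± 0.30 FPKM), and ABAT, a transaminase of the GABA pathway that forms glutamate, rose 1.57-fold. GLS2, the liver-type glutaminase, was 0.28 to 0.54 FPKM in all 6 libraries and was not tested.

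Of 11 transporters of arginine, glutamine and related solutes tested in a list of 18, 3 rose and 7 fell (90.9% called, median log2 fold change -0.62), beside 20.9% called higher and 40.4% lower over all tested genes. Of the cationic amino acid carriers, SLC7A2, the form that liver cells use for arginine, rose from 11.14, 11.48 and 11.93 FPKM to 28.04, 25.48 and 28.44 FPKM, a 2.37-fold change. SLC7A1, the widely expressed form, named after its values were seen, was 7.22, 8.19 and 7.07 FPKM in siControl and 4.64, 4.13 and 3.96 FPKM in siASGR1 (log2 fold change -0.70, limma adjusted p = 0.000204). SLC38A3, a glutamine carrier of hepatocytes, rose 2.71-fold, from 8.79 ± 0.75 to 23.8 ± 0.72 FPKM. SLC38A4, of the same family and also named after its values were seen, fell 1.84-fold, from 23.1 ± 1.70 to 12.6 ± 1.48 FPKM. SLC7A6, which exchanges cationic for neutral amino acids, and AQP3, an aquaglyceroporin, fell 1.95-fold and 1.96-fold. SLC25A2, the second ornithine carrier, RHCG, an ammonia channel gene, and SLC14A1, a urea transporter gene, were at 0 in every library.

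Among 16 regulators that act on urea cycle genes, 3 of 14 tested rose and 6 fell (64.3% called, median log2 fold change -0.16), and 4 rose and 4 fell with median-of-ratios scaling. CEBPD, a C/EBP factor, rose 5.25-fold, from 5.22, 5.71 and 5.65 FPKM to 27.66, 31.60 and 27.75 FPKM. The C/EBP factor best known for ARG1 and CPS1 in liver, CEBPA, was 11.34, 9.48 and 7.68 FPKM in siControl and 8.41, 9.32 and 11.27 FPKM in siASGR1, so the groups overlapped (log2 fold change 0.03, limma adjusted p = 0.873), and CEBPB fell with a log2 fold change of -0.62. The nuclear receptor genes HNF4A and NR1H4 rose 2.27-fold and 1.68-fold, whereas FOXA2 fell 1.81-fold. CREB1 and NFYA, a subunit gene of NF-Y, were named after their values were seen. They fell with log2 fold changes of -0.39 and -0.32. Among the members the CREB letters were in ARG2 only. The CCAAT letters of NF-Y were in ARG2, which fell, and also in ASL and SLC25A13, which rose. Any link between these factors and the members was not tested. PPARGC1A was at 0 in all libraries and the glucagon receptor gene GCGR at most 0.03 FPKM.

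**Figure D4:**
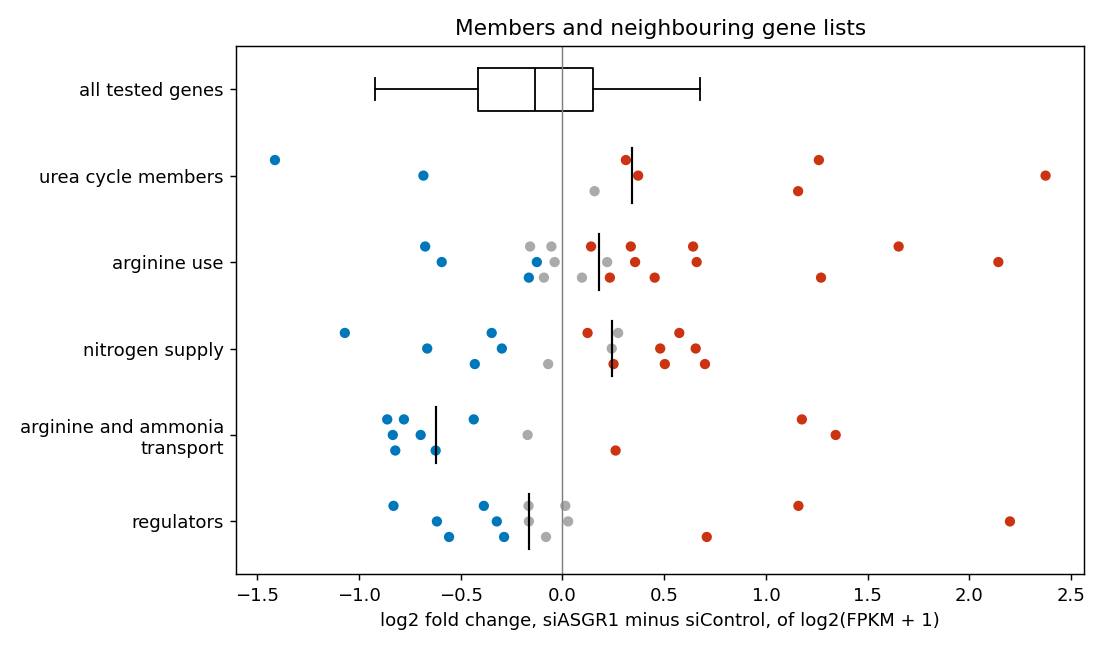
Log2 fold change (siASGR1 minus siControl, log2(FPKM + 1)) of the tested genes of each list; red points were called higher, blue lower and grey not called, and vertical strokes are medians. The box is the quartiles of all tested genes with whiskers at the 5th and 95th percentiles; the transport list has the lowest median, -0.62, and ARG1 the highest point, 2.37.

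The tested genes whose values were most like those of ARG1 were H2AC6, FGB, NPPB, H2BC5 and H2BC12. Likeness was the Euclidean distance over the 6 libraries of log2(FPKM + 1) centred on the siControl mean, which was 0.12 for H2AC6 and 0.34 for H2BC12. FGB encodes a fibrinogen chain and NPPB a natriuretic peptide, and the other 3 are histone genes with near-identical copies, whose single values are uncertain. H2AC6 was 2.39 ± 0.21 and 16.1 ± 0.27 FPKM, NPPB 1.56 ± 0.13 and 12.9 ± 0.25 FPKM, and FGB 26.2 ± 1.39 and 139.5 ± 0.29 FPKM. With only 2 groups, this distance is small for any gene whose groups differ by a like amount.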

How the data were processed

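Total RNA of 6 Huh7 libraries was sequenced from TruSeq libraries, per the labels' protocols. Per the submitters' processing notes, the tools were HISAT2 2.0.1, cutadapt 1.9.1 and bcl2fastq 2.17.1.14, and the build was hg19. Which program counted reads, with what strand setting and annotation, is not given in the sources used here. Values were deposited by the authors as FPKM rounded to 2 decimals, per the file headers, although the name of the table speaks of counts. Genes reaching an FPKM of 1 in 3 or more libraries were tested with limma 3.58.1 (R 4.3.3) on log2(FPKM + 1), with the group as the only term and a trend in the prior, two-sided, with Benjamini-Hochberg adjustment over all 13568 genes. The fit was also run on simulated reads in which few genes changed. That setting differs from these libraries, where 61.3% of tested genes were called, so no support is drawn from it. Fold changes on this scale understate changes of low genes.

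Fragments were rebuilt from the steps of low FPKM with GENCODE v29 exon lengths: 94.7% to 95.5% of low values came out whole within rounding, against 9.0% to 9.8% by chance, with the depth fitted to make this highest. Pairs of libraries of 1 group differed by more than sampling noise (chi-square over degrees of freedom 2.58 to 5.64). Coordinates are GRCh38 and were not used with the hg19 data. Symbols were found for 68.3% of IDs.

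The members and lists were chosen with earlier results of these data known. Named were all members, the target, up to 4 called genes per list with the smallest p-values, overlapping genes, copies, and the 5 genes most like ARG1; any other list gene was named after its values were seen. Some genes of the lists and markers are not reported here. Alternatives covered scaling, pseudocount, filters, prior, rebuilt reads, a replicate block, the single files, a stricter threshold and leaving out each library. The rest used Python 3.11.15 with scipy 1.17.1, matplotlib 3.10.9, pandas 2.3.3 and numpy 2.4.6.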

Additional observations from a re-analysis of the deposited data

How the results depend on the processing

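ARG1, ARG2, ASL, ASS1, SLC25A13, SLC25A15 and GLUD1 kept direction and call in all 19 alternatives: ARG1 ranged from 2.32 to 2.89 (log2 fold change, highest limma adjusted p = 9.9e-05) and ARG2 from -1.54 to -1.20. SLC25A15 had the highest adjusted p of the 7, 0.0235, with no filter. With no filter CPS1 and OTC joined the members called higher (7 in place of 5); leaving out 1 library gave 5 to 6 higher and 2 lower, the sixth being NAGS. The ARG1 to ARG2 log2 ratio differed by 3.73 to 3.83 with 1 library left out. The summed arginase FPKM turned from a difference of -1.02 to 1.98 with median-of-ratios scaling. All genes called higher were 4548 and lower 3439 with median-of-ratios scaling, 4789 and 3215 with upper-quartile scaling, and 3382 lower when an FPKM of 5 was required in 3 libraries, where fewer genes were tested. The arginine use list had 2 called lower in place of 4 with an adjusted p under 0.01, median-of-ratios scaling (also over tested genes only, added after seeing the data), upper-quartile scaling, the prior without a trend or the replicate block, and 2 to 3 with 1 library left out; OAT and OAZ2 were the weakest of the 4. OAT lost its call in 15 of 19 alternatives and turned from -0.13 to 0.068 with median-of-ratios scaling, 0.092 with upper-quartile scaling and 0.019 with median-of-ratios over tested genes. CEBPA, not called, ran from -0.10 to 0.15 with 1 library left out. With upper-quartile scaling the nitrogen supply list had 3 lower in place of 5 and the regulator list 5 higher in place of 3; the cause was not tested. Same-numbered libraries did not deviate together (correlations across genes -0.019 to 0.012), but the replicate numbers do not say whether they were paired. The replicate block, under which 8064 genes in place of 8319 were called, is thus an alternative only. It changed no member's call. Depth limits OTC, CPS1 and other genes of a few fragments.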
